A study of Mus musculus with 11 samples.

Results

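The 4 Hox clusters of the mouse were described by their chromatin accessibility in mammary epithelium. All ATAC-seq peaks between 20 kb before the first and 20 kb past the last of 38 listed Hox genes were taken in each cluster, and each peak was assigned to the listed gene whose coding span lay nearest. This gave 65 of 153396 peaks, with 10 in Hoxa (chromosome 6), 29 in Hoxb (chromosome 11), 13 in Hoxc (chromosome 15) and 13 in Hoxd (chromosome 2), in the mm10 build. They were assigned to 29 of the 38 genes, and Hoxa3, Hoxa4, Hoxa7, Hoxa11, Hoxb7, Hoxc6, Hoxc10, Hoxd4 and Hoxd10 had none assigned. The promoter peak of Hoxa7 lay nearest to the coding span of Hoxa9 and is named Hoxa9 +4.4 kb. That of Hoxd3 lay nearest to the coding span of Hoxd8 and is named Hoxd8 +6.5 kb. Sums by gene and by paralogue number follow this assignment. ATAC-seq maps open chromatin by the insertion of sequencing adapters by the Tn5 transposase. Basal (outer, myoepithelial) and luminal (inner) epithelial cells were sorted from micro-dissected terminal end buds (TEBs, the growing duct tips of puberty) and from ducts of 5-week-old C57BL/6 mice, all of which expressed E-cadherin-GFP. The groups were basal TEB cells (3 libraries), basal duct cells (2 libraries, numbered 1 and 3), luminal TEB cells (3) and luminal duct cells (3). The basal gate was CD29+ CD24+ with low E-cadherin-GFP and the luminal gate was the same with high E-cadherin-GFP, each after exclusion of lineage-marked cells. The study's methods call the libraries biological replicates and say that 1 basal duct sample was dropped for too few cells, but not how many mice each held.

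Hox genes encode homeodomain transcription factors that give cells their position along the body axis. They lie in clusters in which the order of the genes follows their order of use along the axis, from paralogue group 1 at the anterior end to group 13 at the posterior end, and genes of the same group in different clusters are the closest relatives. Polycomb proteins hold silent Hox chromatin closed, Trithorax proteins keep it open, retinoic acid opens the anterior end, and PBX, MEIS and PKNOX proteins bind DNA together with HOX proteins. In the mammary gland, Hoxc8 is known for a part in placing the embryonic gland, and mice that lack the group 9 genes of several clusters have poorly developed glands in pregnancy. Open chromatin at a Hox gene is not a measure of its expression.

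The 6 peaks on which the results turn are shown first, each as the middle stretch of the peak of at most 300 bases (the Hoxb1 +17.9 kb peak whole), 5′ to 3′ on the plus strand of mm10. A peak is named by its gene and by the distance in kb from the start of the coding sequence to the middle of the peak, negative upstream. Capitals mark matches, on either strand, to any of 12 short motifs that were searched, and lower case marks all other bases. Hoxc13 +0.8 kb (chr15:102921809-102922108) had the largest difference between basal and luminal ducts among peaks with non-overlapping groups and an above-median level, and its stretch runs over the end of the first exon of Hoxc13 into the intron. Hoxb3 -4.6 kb (chr11:96339470-96339769) was higher in basal cells of both structures, and Hoxb3 -11.2 kb (chr11:96332854-96333153) was highest in basal ducts. Both lie in introns of Hoxb3. Hoxb4 +0.6 kb (chr11:96319185-96319484) and Hoxb1 +0.9 kb (chr11:96366538-96366837) are promoter peaks in which TEB over duct differed between the lineages, by calls that did not hold under every scaling given below. The Hoxb4 stretch runs from the end of the first exon into the intron, and the Hoxb1 stretch from the intron into the second exon. Hoxb1 +17.9 kb (chr11:96383700-96383849) lies between genes and was the peak open mainly in luminal cells.
Hoxc13 +0.8 kb: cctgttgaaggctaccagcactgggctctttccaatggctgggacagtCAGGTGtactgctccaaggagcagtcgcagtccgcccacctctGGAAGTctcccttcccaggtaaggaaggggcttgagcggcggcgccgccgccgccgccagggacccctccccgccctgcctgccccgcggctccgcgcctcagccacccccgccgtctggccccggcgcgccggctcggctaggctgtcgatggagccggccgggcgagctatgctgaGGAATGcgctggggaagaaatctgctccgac
Hoxb3 -4.6 kb: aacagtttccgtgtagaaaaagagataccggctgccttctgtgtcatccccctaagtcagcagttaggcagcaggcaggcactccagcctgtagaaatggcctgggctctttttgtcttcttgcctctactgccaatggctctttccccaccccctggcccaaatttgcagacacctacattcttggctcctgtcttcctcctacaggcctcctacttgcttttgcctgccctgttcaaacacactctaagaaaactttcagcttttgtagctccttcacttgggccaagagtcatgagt
Hoxb3 -11.2 kb: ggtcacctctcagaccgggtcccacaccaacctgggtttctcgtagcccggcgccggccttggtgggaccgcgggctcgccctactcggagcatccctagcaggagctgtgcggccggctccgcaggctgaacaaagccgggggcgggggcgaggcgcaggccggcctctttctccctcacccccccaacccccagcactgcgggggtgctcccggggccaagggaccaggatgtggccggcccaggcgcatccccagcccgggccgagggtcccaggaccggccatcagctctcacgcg
Hoxb4 +0.6 kb: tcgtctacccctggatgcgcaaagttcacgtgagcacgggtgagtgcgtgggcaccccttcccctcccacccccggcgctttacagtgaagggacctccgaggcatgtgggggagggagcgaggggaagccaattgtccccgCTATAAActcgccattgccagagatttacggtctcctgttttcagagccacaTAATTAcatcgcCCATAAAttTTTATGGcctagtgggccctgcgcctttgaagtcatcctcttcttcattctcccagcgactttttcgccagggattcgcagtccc
Hoxb1 +0.9 kb: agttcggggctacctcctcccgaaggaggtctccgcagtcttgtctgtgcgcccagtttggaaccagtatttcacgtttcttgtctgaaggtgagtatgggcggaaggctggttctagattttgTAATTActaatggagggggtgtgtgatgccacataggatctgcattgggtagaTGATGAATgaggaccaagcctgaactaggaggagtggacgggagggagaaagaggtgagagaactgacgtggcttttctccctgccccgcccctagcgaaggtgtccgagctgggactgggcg
Hoxb1 +17.9 kb: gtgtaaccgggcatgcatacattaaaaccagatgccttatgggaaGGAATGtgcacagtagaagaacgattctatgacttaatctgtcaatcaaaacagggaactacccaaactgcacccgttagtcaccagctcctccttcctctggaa
In the Hoxc13 stretch the capitals are an E-box, an ETS and a TEAD match. Those of Hoxb4 are 3 matches to the posterior HOX motif TTTATNG around 1 homeodomain core TAATTA, and those of Hoxb1 +0.9 kb are 1 TAATTA and 1 HOX-PBX composite TGATNNAT. The Hoxb1 +17.9 kb peak holds 1 TEAD match, and the 2 Hoxb3 stretches hold no match.

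The libraries differed in depth. Counts in peaks were 1821942 to 2489582 per library in basal TEB cells, 6816197 to 9986384 in basal duct cells, 2960093 to 3738324 in luminal TEB cells and 4650216 to 5561051 in luminal duct cells. The median count of a Hox peak was 4 to 5 in the basal TEB libraries, 20 to 29 in the basal duct libraries, 5 to 7 in the luminal TEB libraries and 7 to 10 in the luminal duct libraries. The groups were not compared at matched depth. Promoter peaks of 8 basal markers were higher in basal than luminal cells for 8 genes in ducts and 6 in TEBs, and those of 8 luminal markers were lower for 5 and 6 genes, as the sort labels say. Of all peaks within 500 bp of a transcription start site, 43.5% were higher and 13.1% lower in basal than luminal ducts. In TEBs these shares were 10.7% and 15.1%. Of 10 fibroblast markers, 5 had a promoter peak, and all 5 were higher in basal than luminal ducts, with a summed level of 24.8 to 32.5 CPM (counts in a peak per 1000000 counts in peaks, with library sizes scaled by TMM) in basal TEBs, 56.1 to 62.1 CPM in basal ducts, 17.8 to 19.5 CPM in luminal TEBs and 23.3 to 25.7 CPM in luminal ducts. Col1a1, Col3a1, Dpt, Lum and Prrx1, the other fibroblast markers, had no promoter peak. Of 7 endothelial markers, 2 had a promoter peak, with 17.6 to 22.5 CPM in basal TEBs, 25.2 to 28.7 CPM in basal ducts, 4.92 to 7.57 CPM in luminal TEBs and 4.45 to 7.31 CPM in luminal ducts. Of 7 immune markers, 2 had a promoter peak, with 1 higher and 1 lower in basal than luminal ducts. Of 5 adipocyte markers, 3 had a promoter peak, with 1 higher and 0 lower. The part of these cells in the Hox results below was not tested, and in bulk samples fewer open cells and less accessibility per cell cannot be told apart.

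Summed over all 65 peaks, the clusters had 200.1 ± 25.9 CPM in basal TEBs (SD, n = 3), 319.9 ± 25.6 CPM in basal ducts (n = 2), 160.7 ± 16.9 CPM in luminal TEBs (n = 3) and 149.0 ± 11.5 CPM in luminal ducts (n = 3). With library sizes scaled by TMM over all peaks, basal duct cells thus had the largest Hox sum, with no overlap with another group. Their lead over basal TEBs rests on that scaling. When libraries were scaled to peaks at transcription start sites, the median log2 fold change of the Hox peaks between these groups was 0. That scaling sets the median change of such peaks near 0 by construction. It therefore cannot tell a gain shared by such peaks in basal ducts from a difference of scale. The Hoxb cluster held most of the Hox sum, with 122.2, 102.5 and 134.3 CPM in basal TEBs, 199.9 and 174.7 CPM in basal ducts, 103.7, 88.3 and 95.5 CPM in luminal TEBs and 81.0, 78.2 and 69.0 CPM in luminal ducts. The Hoxc cluster had 46.5, 38 and 43.9 CPM in basal TEBs, 69.2 and 65.2 CPM in basal ducts, 34.6, 17.5 and 22.4 CPM in luminal TEBs and 22.1, 24.4 and 21.5 CPM in luminal ducts. In both clusters the basal libraries lay above the luminal libraries of the same structure, except that Hoxb of basal TEB replicate 2 lay below luminal TEB replicate 1. The Hoxa sum was 16.8 ± 3.19 CPM in basal TEBs, 28.2 ± 0.493 CPM in basal ducts, 20.5 ± 3.36 CPM in luminal TEBs and 22.1 ± 3.55 CPM in luminal ducts. The Hoxd sum was 20.8 ± 6.91 CPM in basal TEBs, 37.3 ± 5.45 CPM in basal ducts, 19.5 ± 1.88 CPM in luminal TEBs and 28.2 ± 2.55 CPM in luminal ducts, so in TEBs these clusters gave basal and luminal values within each other's spread.

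**Figure D1:**
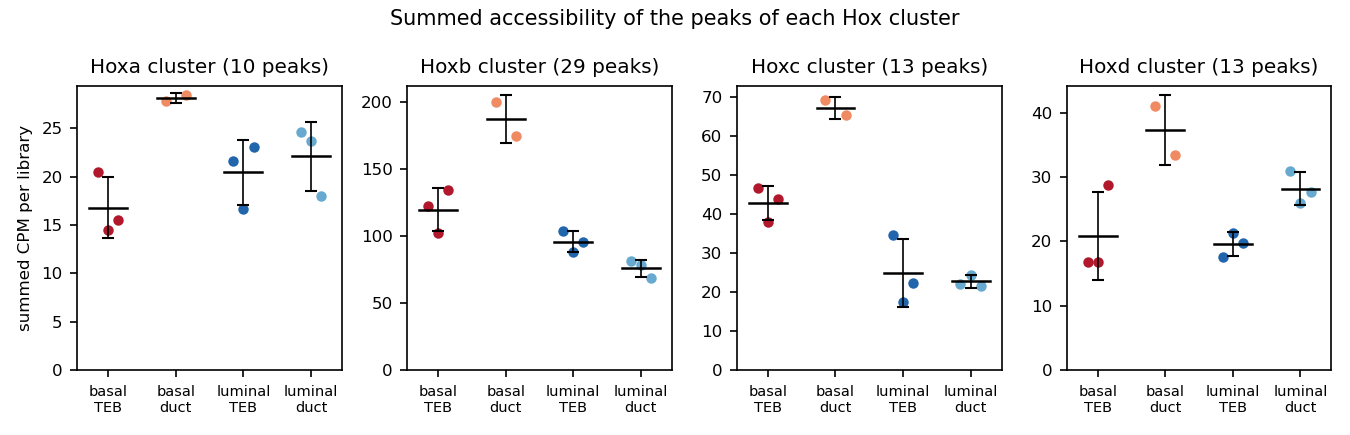
Summed accessibility (CPM) of the peaks of each Hox cluster in each library, with basal TEB, basal duct, luminal TEB and luminal duct from left to right in every panel, points for libraries, and lines and bars for the mean and SD. Basal duct libraries were highest in all 4 clusters with library sizes scaled by TMM over all peaks. The Hoxb panel reaches 199.9 CPM while the Hoxa panel stays at or under 28.5 CPM.

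The ratio of the mean summed CPM of basal to luminal ducts was 2.46 for Hoxb and 2.96 for Hoxc, and 1.27 for Hoxa and 1.32 for Hoxd. By paralogue number it was 1.67 for group 1, 1.97 for group 2, 2.64 for group 3, 2.24 for group 4 and 3.34 for group 5. It was 1.39 for group 6, 1.83 for group 8, 1.58 for group 9, 1.48 for group 10, 1.5 for group 11, 0.852 for group 12 and 3.1 for group 13, so it followed no single course along the axis. Group 13 owed its place to Hoxc13, whose 2 peaks summed to 17.0 ± 1.70 CPM in basal TEBs, 24.0 ± 0.387 CPM in basal ducts, 3.86 ± 0.988 CPM in luminal TEBs and 2.65 ± 0.304 CPM in luminal ducts. Group 4 had the largest sum in every group of cells, at 41.7 ± 0.673 CPM in basal TEBs, 64.7 ± 8.64 CPM in basal ducts, 34.2 ± 2.60 CPM in luminal TEBs and 28.8 ± 2.35 CPM in luminal ducts. Its peaks also spanned the most bases, 4039 bp, and per kb it was not the highest in any group of cells. In basal TEBs it had 10.3 CPM per kb and group 6 had 11.4, and in basal ducts it had 16.0 and group 3 had 16.2.

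The Hox peaks differed from other peaks in sequence and place. Their median GC content was 61.5%, against 49.1% over all peaks, 63.1% of them had a GC content of 60% or more, against 8.94%, and 36.9% lay within 500 bp of a protein-coding transcription start site (TSS), against 11.7%. Of the 65 peaks, 41 touched an exon, 12 lay in introns and 12 between genes. Hoxb was the least rich in GC, with a median of 58.2%, and Hoxd the richest, with 69.4%. Across all 153395 peaks tested in ducts, GC content and the log2 fold change of basal over luminal cells had a Pearson r of 0.27, and across the 65 Hox peaks, which share libraries, r was 0.11. Calls over GC-rich peaks (60% or more) and TSS peaks are therefore given beside the Hox calls.

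Basal duct cells against luminal duct cells asked which Hox regions mark the lineages in mature ducts. Of 65 Hox peaks, 37 were higher and 2 lower in basal duct cells (exact test of edgeR, FDR 0.05), a share of 56.9% and 3.08%. Over all 153395 peaks tested, 31.8% were higher and 36.6% lower. Higher calls took 43.5% of all TSS peaks and 45.9% of all peaks with a GC content of 60% or more. The median log2 fold change of the Hox peaks was 1.06, against -0.10 over all peaks, 0.35 over TSS peaks and 0.44 over the GC-rich peaks. The clusters differed in their shares. In Hoxb, 25 of 29 peaks were higher (86.2%, median log2 fold change 1.41) and 1 lower, in Hoxc 8 of 13 were higher (61.5%, median 1.06), in Hoxa 2 of 10 (20%, median 0.34), and in Hoxd 2 of 13 were higher and 1 lower (median 0.37). With offsets that level the fold change over bins of GC content, 29 Hox peaks were higher and 5 lower, against 30.9% and 37.3% of all peaks. The higher calls were then 23 in Hoxb, 5 in Hoxc, 1 in Hoxa and 0 in Hoxd, and 28 of the 37 peaks were higher in both fits. Within Hoxb, 15 of 17 peaks under 60% GC and 10 of 12 peaks at or over 60% GC were higher in the exact test.

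**Figure D2:**
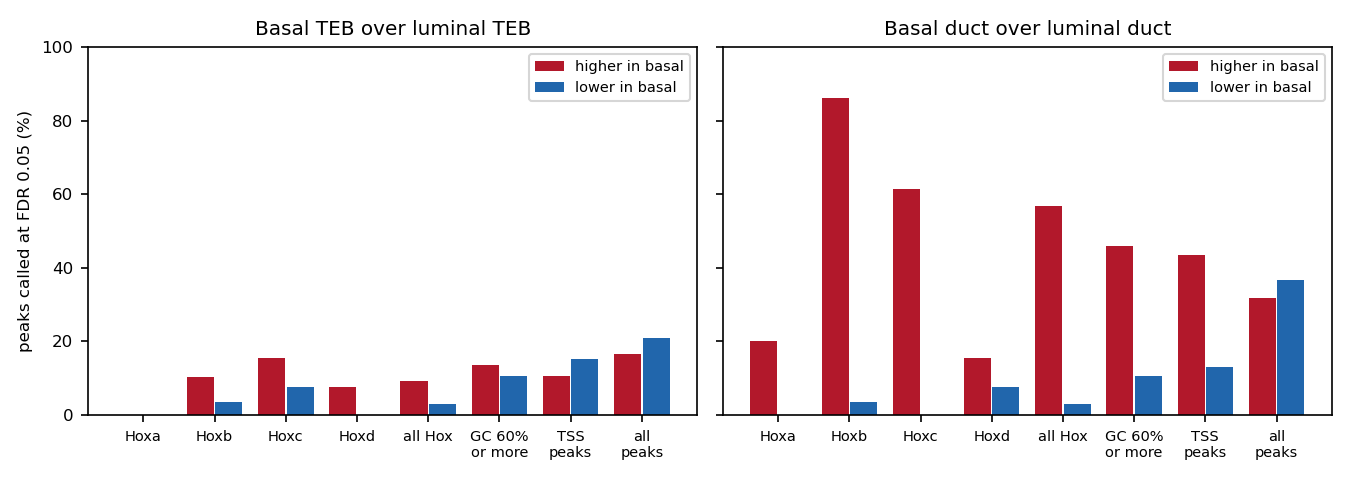
Share of peaks called at FDR 0.05 (percent) for basal over luminal TEBs (left) and basal over luminal ducts (right), in each Hox cluster, over all 65 Hox peaks, and over all GC-rich peaks, TSS peaks and peaks of the series. In ducts the bar for higher calls reaches 86.2% in Hoxb and 31.8% over all peaks.

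The Hoxc13 +0.8 kb peak gave the largest difference by the rule for named peaks. HOXC13 is known as a regulator of hair and nail keratin genes. The peak had 16.4, 18.4 and 14.2 CPM in basal TEBs, 20.7 and 20.6 CPM in basal ducts, 3.57, 2.19 and 3.29 CPM in luminal TEBs and 2.12, 2.05 and 1.93 CPM in luminal ducts. Every basal library lay above every luminal library. The log2 fold change of basal over luminal ducts was 3.27 ± 0.03 (SE, FDR 6.6e-32 by the exact test of edgeR), and 2.76 with GC-bin offsets (FDR 1.4e-13 in edgeR). Per kb it was the most open Hox peak in both basal groups, at 20.9 CPM per kb in basal TEBs, 26.5 CPM per kb in basal ducts, 3.86 CPM per kb in luminal TEBs and 2.61 CPM per kb in luminal ducts. The call held in each of 16 alternatives in TEBs and 15 in ducts. A second, 183 bp peak in the same exon, Hoxc13 +0.2 kb, had 1.02, 0 and 0.887 CPM in basal TEBs, 3.53 and 3.08 CPM in basal ducts, 1.37, 0.82 and 0.329 CPM in luminal TEBs and 0.848, 0.56 and 0.43 CPM in luminal ducts. It rose in basal over luminal ducts (log2 fold change 2.34 ± 0.18, FDR 2.0e-05 in edgeR) but had 0 to 2 counts in each basal TEB library.

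Hoxc5 +1.4 kb, an 854 bp peak over the end of the intron and the last exon, had 4.6, 3.91 and 8.87 CPM in basal TEBs, 13.8 and 10.8 CPM in basal ducts, 3.84, 1.91 and 2.96 CPM in luminal TEBs and 3.39, 3.55 and 2.36 CPM in luminal ducts. Both basal duct libraries lay above all others. The log2 fold change of basal over luminal ducts was 1.92 ± 0.23 (FDR 2.9e-11 in edgeR). The promoter peak of the gene, Hoxc5 +0.2 kb, rose by 2.09 ± 0.56 in the same comparison (FDR 4.5e-07 in edgeR). Hoxb3 -4.6 kb had 3.58, 4.7 and 4.43 CPM in basal TEBs, 7.29 and 5.39 CPM in basal ducts, 1.37, 1.09 and 1.32 CPM in luminal TEBs and 2.12, 1.31 and 1.51 CPM in luminal ducts, with a log2 fold change of basal over luminal ducts of 1.90 ± 0.26 (FDR 6.2e-07 in edgeR). Hoxb3 -11.2 kb had 4.09, 3.52 and 4.88 CPM in basal TEBs, 12.2 and 10 CPM in basal ducts, 3.29, 2.46 and 4.28 CPM in luminal TEBs and 2.97, 2.99 and 2.79 CPM in luminal ducts, with a log2 fold change of 1.87 ± 0.14 (FDR 3.0e-10 in edgeR). These intronic regions of Hoxb3, an anterior Hox gene, thus had different courses in TEBs. The basal TEB libraries of Hoxb3 -4.6 kb lay above all luminal libraries, and those of Hoxb3 -11.2 kb overlapped the luminal TEB libraries.

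**Figure D3:**
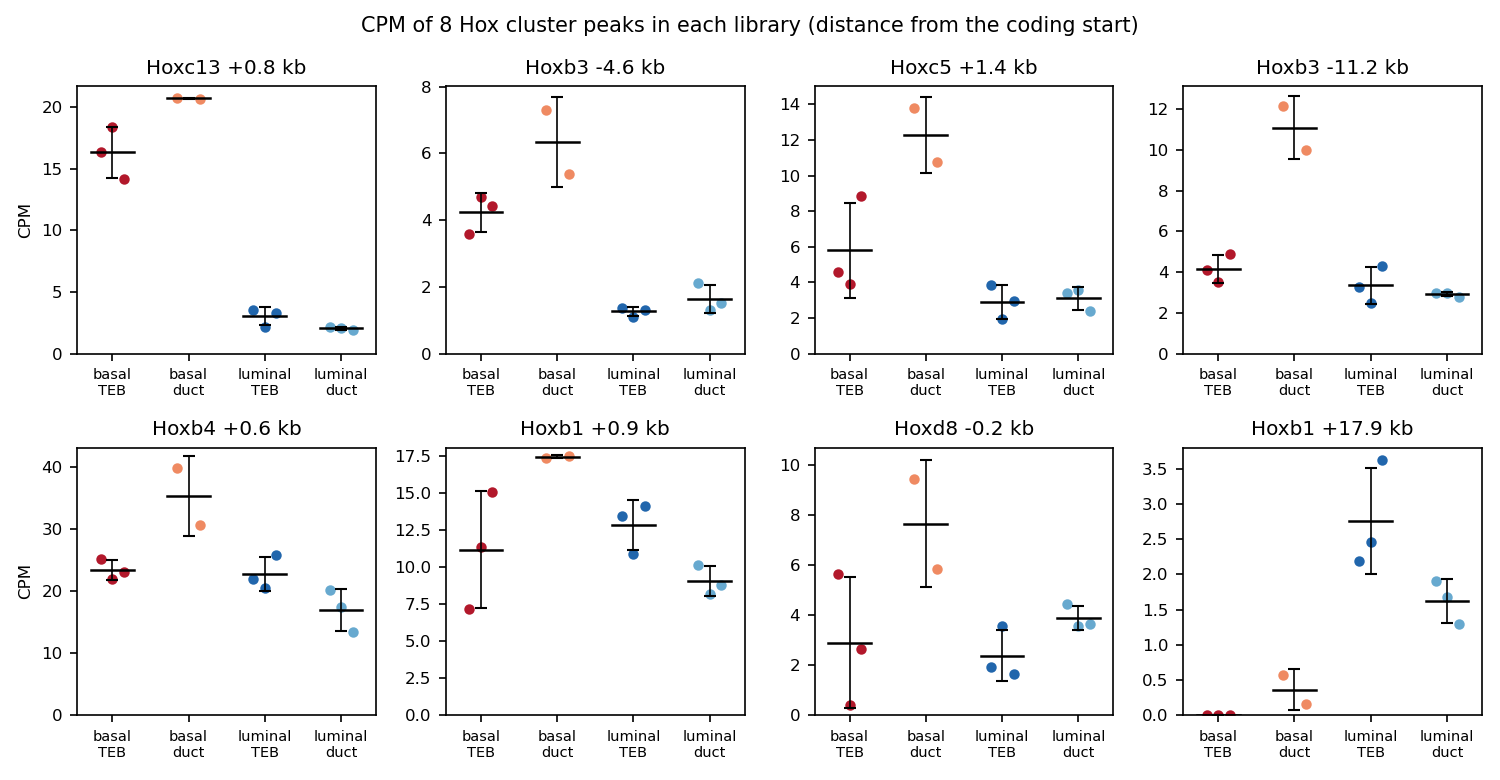
CPM of 8 Hox cluster peaks in each library, with basal TEB, basal duct, luminal TEB and luminal duct from left to right in every panel, points for libraries, and lines and bars for the mean and SD. Hoxc13 +0.8 kb is above 14 CPM in all 5 basal libraries and under 4 CPM in all 6 luminal libraries, while Hoxb1 +17.9 kb is at 0 in the 3 basal TEB libraries.

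Within Hoxb, peaks higher in basal than luminal ducts were found from Hoxb1 to Hoxb13. The outermost peak at the Hoxb1 end, Hoxb1 +17.9 kb, was lower (log2 fold change -2.07, FDR 0.0027 in edgeR). Of 16 peaks assigned to Hoxb1, Hoxb2, Hoxb3 and Hoxb4, 14 were higher in basal than luminal ducts. All 7 peaks of Hoxb5, Hoxb6 and Hoxb8 were higher, and 4 of 6 peaks of Hoxb9 and Hoxb13. Higher calls in this comparison took 31.8% of all peaks, 43.5% of TSS peaks and 45.9% of GC-rich peaks. Hoxb3 carried the most peaks, with 7, and Hoxb4 the highest sum, at 36.6 ± 1.29 CPM in basal TEBs, 59.9 ± 8.26 CPM in basal ducts, 31.1 ± 3.44 CPM in luminal TEBs and 24.8 ± 2.3 CPM in luminal ducts. Hoxb4 also had the most bases in peaks within Hoxb, 3184 bp, and per kb was the highest there in basal ducts only, at 18.8 CPM. Its 2014 bp promoter peak, Hoxb4 +0.6 kb, which reaches from the first to the second exon, had 25.1, 21.9 and 23.1 CPM in basal TEBs, 39.8 and 30.7 CPM in basal ducts, 22.0, 20.5 and 25.7 CPM in luminal TEBs and 20.1, 17.4 and 13.3 CPM in luminal ducts. It was 1.00 ± 0.25 higher on the log2 scale in basal than luminal ducts (FDR 1.1e-07 in edgeR), with the TEB groups overlapping. Hoxb4 -6.8 kb, a 705 bp peak between Hoxb5 and Hoxb4 that was chosen for description after its values were seen, had 4.09, 9.78 and 12 CPM in basal TEBs, 17.2 and 13.9 CPM in basal ducts, 3.84, 6.28 and 5.27 CPM in luminal TEBs and 4.67, 5.22 and 5.59 CPM in luminal ducts (log2 fold change in ducts 1.53 ± 0.17, FDR 1.1e-09 in edgeR).

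The posterior end of Hoxb was thinly covered. Hoxb13, a gene known for its use in the prostate, had 2 peaks with a sum of 2.28 ± 0.753 CPM in basal TEBs, 2.16 ± 0.00584 CPM in basal ducts, 1.70 ± 0.632 CPM in luminal TEBs and 0.257 ± 0.283 CPM in luminal ducts. Both were higher in basal than luminal ducts, on counts of 0 to 3 in each luminal duct library. Hoxb1 +17.9 kb, a 150 bp peak between genes, also chosen after its values were seen, went the other way. It had 0, 0 and 0 counts in basal TEBs, 5 and 1 counts in basal ducts, 8, 9 and 11 counts in luminal TEBs and 9, 9 and 6 counts in luminal ducts. Against a floor of 3 counts over the 3 basal TEB libraries (0.443 CPM), its level in basal TEBs was at least 6.1-fold lower than the 2.71 CPM of luminal TEBs, a bound for counting error only.

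**Figure D4:**
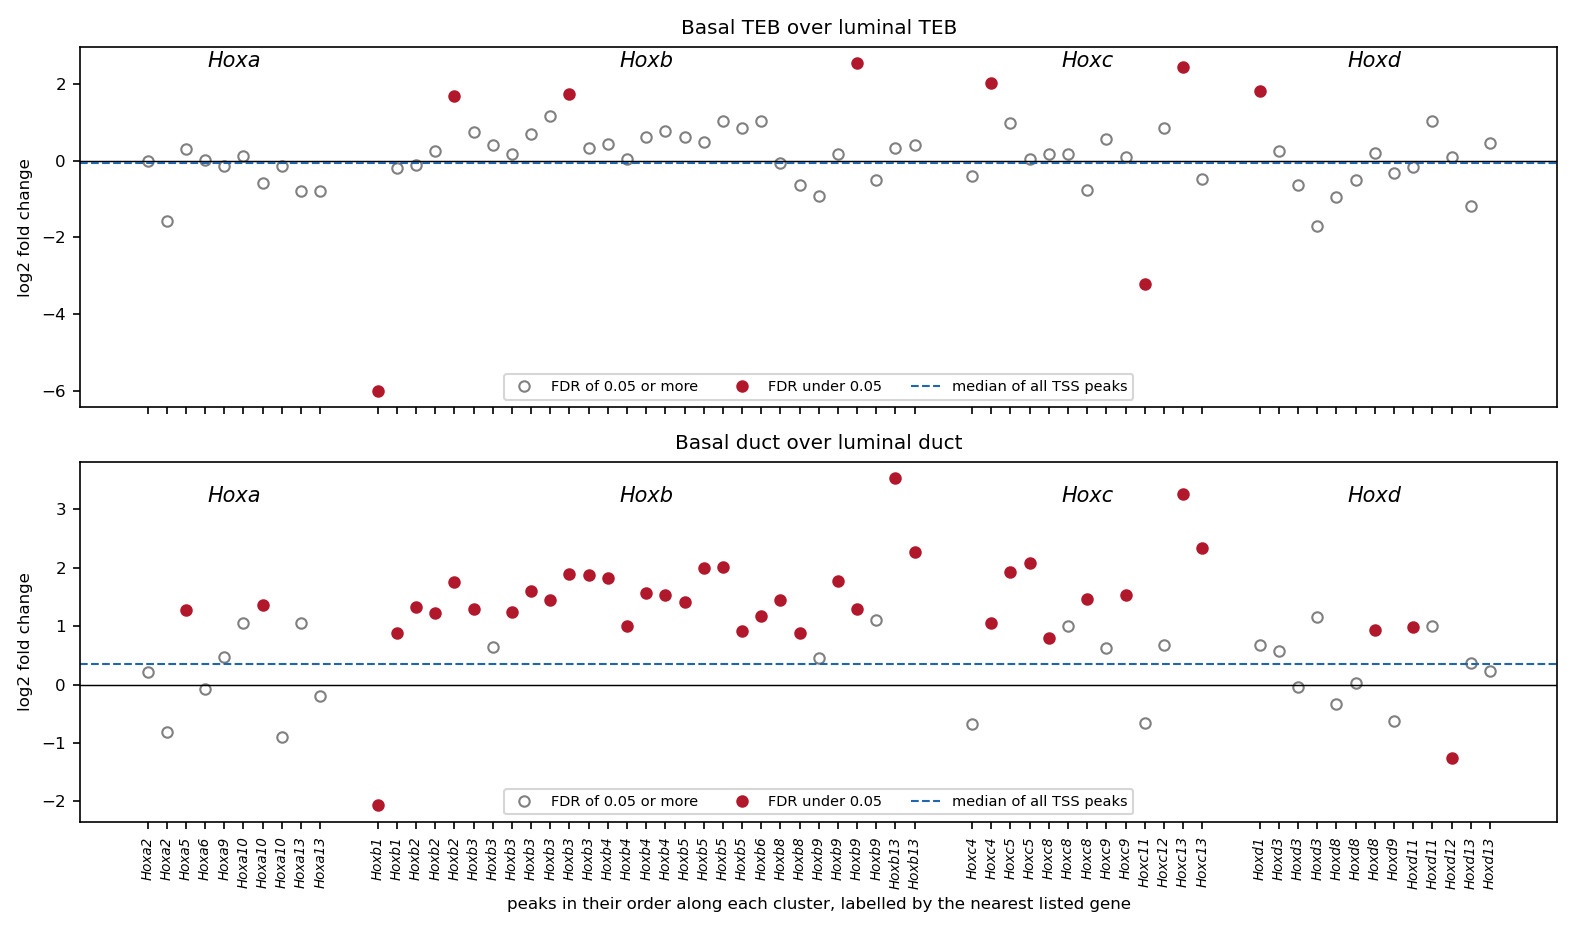
Log2 fold change of basal over luminal TEBs (top) and basal over luminal ducts (bottom) for the 65 peaks, in their order along each cluster from the low to the high paralogue numbers, with filled points for peaks with an FDR under 0.05 and a dashed line for the median of all TSS peaks. In ducts 26 of the 29 Hoxb points are filled, 25 of them above the dashed line at 0.35, against 2 of 10 in Hoxa and 3 of 13 in Hoxd.

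Promoter peaks (the most open peak within 500 bp of a TSS) were found for 19 of the 38 genes. Of these 19, 10 were higher and 0 lower in basal than luminal ducts, beside 43.5% and 13.1% of all TSS peaks. Those that rose were at Hoxa5, Hoxb1, Hoxb2, Hoxb4, Hoxb5, Hoxc4, Hoxc5, Hoxc9, Hoxc13 and Hoxd8. The largest increases after Hoxc13 were at Hoxc5 and at Hoxb2, whose peak rose by 1.76 ± 0.21 (FDR 2.7e-06 in edgeR). The 9 promoter peaks not called ranged from -0.89 at Hoxa10 (FDR 0.11 in edgeR) to 1.01 at Hoxd11 (FDR 0.069 in edgeR). Both genes had another, less open peak within 500 bp of a TSS that was higher in basal than luminal ducts. Hoxa10 +5.9 kb rose by 1.37 ± 0.24 (FDR 0.0081 in edgeR) and Hoxd11 +0.1 kb by 0.99 ± 0.34 (FDR 0.03 in edgeR). Neither passed with GC-bin offsets (FDR 0.11 and 0.31 in edgeR). Hoxa5, whose loss in mice is known to alter growth of the mammary epithelium, had 4.09, 1.96 and 1.33 CPM in basal TEBs, 3.3 and 4.0 CPM in basal ducts, 2.74, 0.82 and 2.31 CPM in luminal TEBs and 1.91, 1.87 and 0.43 CPM in luminal ducts. Its increase in basal over luminal ducts was 1.28 ± 0.48 (FDR 0.0044 in edgeR), and 0.77 with GC-bin offsets (FDR 0.11 in edgeR). The 2 peaks assigned to Hoxa2 lay beyond it, within 500 bp of the start of a Hox gene that is not on the list, and were not called, at 0.21 and -0.82 on the log2 scale. Hoxd12 -1.9 kb was the Hoxd peak that was lower in basal ducts, at 0.511, 1.57 and 1.77 CPM in basal TEBs, 0.912 and 1.23 CPM in basal ducts, 0.823, 2.46 and 0.329 CPM in luminal TEBs and 1.7, 2.05 and 3.65 CPM in luminal ducts (log2 fold change -1.26 ± 0.32, FDR 0.02 in edgeR).

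Between basal TEB cells and luminal TEB cells, 6 of 65 Hox peaks were higher and 2 lower (9.23% and 3.08%), against 16.6% and 20.8% of the 153396 peaks tested, 10.7% and 15.1% of TSS peaks, and 13.7% and 10.7% of GC-rich peaks. The 6 higher peaks became 2 with DESeq2 or without luminal TEB replicate 2, and 3 without luminal TEB replicate 1 or without basal TEB replicate 3. The 2 lower peaks became 0 with a filter on low counts (filterByExpr), and 1 without basal TEB replicate 2 or 3 or without any 1 of the luminal TEB replicates. The median log2 fold change of the Hox peaks was 0.17, against -0.07 over all peaks. Hoxc13 +0.8 kb rose by 2.43 ± 0.21 (FDR 7.9e-10 in edgeR) and Hoxb3 -4.6 kb by 1.73 ± 0.13 (FDR 0.012 in edgeR), and in both the 3 basal libraries lay above the 3 luminal ones. The other higher peaks were Hoxb9 -18.7 kb (2.53 ± 0.64), Hoxc4 +0.1 kb (2.01 ± 0.16), Hoxd1 -0.0 kb (1.80 ± 0.72) and Hoxb2 +0.4 kb (1.67 ± 0.72), with FDRs of 0.0028, 0.016, 0.012 and 0.045 in edgeR. The luminal TEB libraries held 5, 4 and 4 counts of Hoxb3 -4.6 kb and 3, 3 and 2 counts of Hoxc4 +0.1 kb, so the small SEs of both understate the uncertainty. The lower peaks were Hoxb1 +17.9 kb and Hoxc11 -0.8 kb, which had 1, 0 and 0 counts in basal TEBs and 6, 6 and 6 counts in luminal TEBs. Of the 19 promoter peaks, 4 were higher, at Hoxb2, Hoxc4, Hoxc13 and Hoxd1, beside the 10.7% of all TSS peaks. Of all Hox peaks, 6 were called the same way in TEBs and ducts, a description with no share over all peaks beside it. Of these 6, 5 were higher in basal cells of both structures (Hoxc13 +0.8 kb, Hoxb3 -4.6 kb, Hoxb2 +0.4 kb, Hoxb9 -18.7 kb and Hoxc4 +0.1 kb). Hoxd1 had 1.53, 5.48 and 9.31 CPM in basal TEBs, 5.7 and 5.08 CPM in basal ducts, 1.1, 1.37 and 2.31 CPM in luminal TEBs and 3.61, 3.92 and 2.15 CPM in luminal ducts, so its basal TEB libraries ranged from below both basal duct libraries to above them, and 1 of them lay below luminal TEB replicate 3. Its TEB call was lost with DESeq2 and without basal TEB replicate 3, luminal TEB replicate 1 or luminal TEB replicate 2. The TEB call of Hoxb3 -4.6 kb was lost with DESeq2 and without luminal TEB replicate 1 or 2, and that of Hoxc4 +0.1 kb with DESeq2, without basal TEB replicate 2 and without luminal TEB replicate 3. Hoxb2 +0.4 kb kept its TEB call in 3 of 15 alternatives.

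Between basal TEB cells and basal duct cells, 0 Hox peaks were higher and 7 lower (0% and 10.8%), against 8.22% and 9.73% of the 153358 peaks tested. With an unadjusted p under 0.05, 17 were lower and 0 higher, and DESeq2 called 0 in either direction. Lower calls took 30.7% of all TSS peaks and 30.8% of all GC-rich peaks. The median log2 fold change of the Hox peaks was -0.67, against -0.62 over all TSS peaks, -0.63 over GC-rich peaks and 0.02 over all peaks. When libraries were scaled to TSS peaks, the Hox median was 0 and 0 peaks were called. The medians were then 0.655 over all peaks and 0.02 over TSS peaks. With GC-bin offsets the Hox median was -0.20 with 0 called, against 0.296 over all peaks and 0.049 over GC-rich peaks. The Hox median before these scalings was near those of TSS and GC-rich peaks throughout the genome. The Hox median was -0.65 over the 24 peaks under 60% GC and -0.68 over the 41 peaks over 500 bp from a TSS. Each of these sets leaves out only the named class and may hold peaks of the other. The medians of such sets over all peaks are not given. The cause of the lower level was not tested. The peaks named by the rule were Hoxd8 -0.2 kb, Hoxb3 -11.2 kb and Hoxc5 +1.4 kb. Hoxd8 -0.2 kb had 5.62, 0.391 and 2.66 CPM in basal TEBs, 9.46 and 5.85 CPM in basal ducts, 1.92, 3.55 and 1.65 CPM in luminal TEBs and 4.45, 3.55 and 3.65 CPM in luminal ducts (basal TEB over basal duct -1.49 ± 0.89, FDR 0.031 in edgeR). Hoxb3 -11.2 kb was -1.42 ± 0.18 (FDR 0.0067 in edgeR) and Hoxc5 +1.4 kb was -1.09 ± 0.38 (FDR 0.034 in edgeR) in the same comparison. Of the 7 peaks lower in basal TEBs, 6 were higher in basal than luminal ducts, as were 56.9% of all 65 Hox peaks. The 2 comparisons share the basal duct libraries, and no share over all peaks is given, so this overlap is a description only. No call was left without basal duct replicate 1 or without basal duct replicate 3.

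Between luminal TEB cells and luminal duct cells, 0 Hox peaks were called in either direction by edgeR and by DESeq2, against 0.311% higher and 0.455% lower of the 153394 peaks tested, 0.129% and 1.19% of TSS peaks, and 0.131% and 0.773% of GC-rich peaks. With an unadjusted p under 0.05 in the exact test, 3 of 65 Hox peaks were higher and 1 lower, beside 17660 of the 153394 peaks tested in either direction. The median log2 fold change was 0.05 over the Hox peaks, 0.34 over Hoxb and -0.58 over Hoxd, against -0.14 over all TSS peaks.

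The difference between the lineages in TEB over duct was tested as an interaction (quasi-likelihood test of edgeR), for which 44 of the 65 Hox peaks had enough counts. Of these, 0 were higher and 3 lower (6.82%), against 7.51% and 6.5% of 126832 peaks, 1.27% and 13.8% of TSS peaks, and 3.85% and 15.4% of GC-rich peaks. The same term is the difference of the basal over luminal fold between TEBs and ducts. All 3 were in Hoxb. Hoxb4 +0.6 kb had an interaction of -0.94 on the log2 scale (FDR 0.023 in edgeR), with TEB over duct at -0.60 ± 0.19 in basal and 0.42 ± 0.19 in luminal cells. Hoxb1 +0.9 kb had 7.16, 11.4 and 15.1 CPM in basal TEBs, 17.4 and 17.6 CPM in basal ducts, 13.5, 10.9 and 14.2 CPM in luminal TEBs and 10.2, 8.21 and 8.81 CPM in luminal ducts (interaction -1.05, FDR 0.039 in edgeR). Hoxb3 -11.2 kb had an interaction of -1.52 (FDR 0.044 in edgeR). In the first 2 peaks both basal duct libraries lay above all luminal duct libraries and the TEB groups overlapped. None of the 3 passed when libraries were scaled to TSS peaks or with GC-bin offsets, and the median interaction was -0.68 over the Hox peaks and -0.42 over all TSS peaks.

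**Figure D5:**
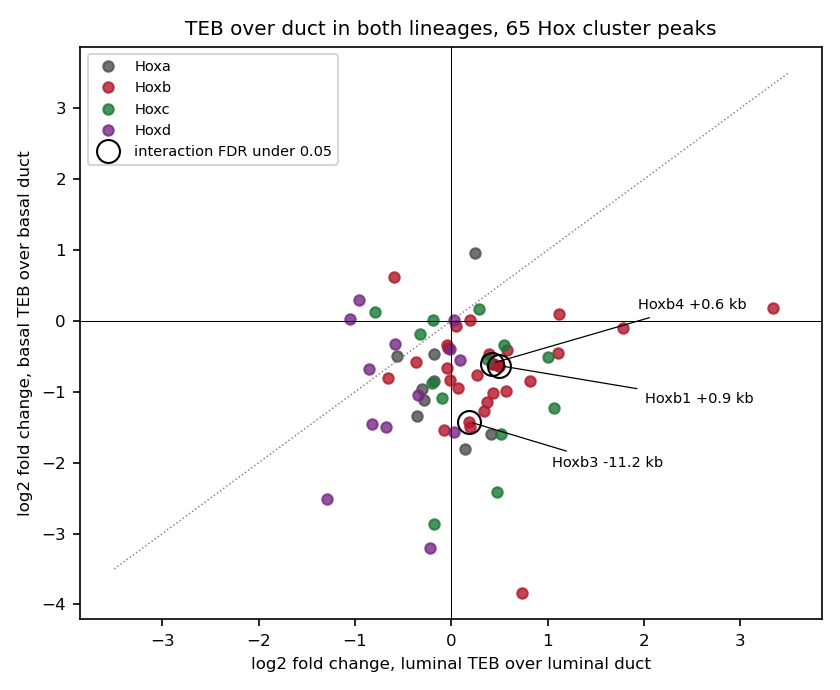
Log2 fold change of basal TEB over basal duct (vertical axis) against luminal TEB over luminal duct (horizontal axis) for the 65 Hox cluster peaks, coloured by cluster, with rings for the 3 peaks with an interaction FDR under 0.05 and a dotted line of equal values. Most points lie below 0 on the vertical axis (median -0.67) and about 0 on the horizontal axis (median 0.05).

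Genes that work with or on Hox genes were read at their promoter peaks. Over all TSS peaks, 43.5% were higher and 13.1% lower in basal over luminal ducts, and 0.771% were higher and 30.7% lower in basal TEBs over basal ducts, and the counts below stand beside these shares. Of the Hox cofactors, all 9 had one. In basal over luminal ducts 4 were higher and 1 lower (median log2 fold change 0.37), with Pbx4 at 28.7 ± 2.72 CPM in basal ducts and 14.1 ± 2.11 CPM in luminal ducts, and Pbx2 at 12.3 ± 1.85 CPM in basal ducts and 5.65 ± 0.993 CPM in luminal ducts. In basal TEBs over basal ducts 0 were higher and 4 lower (median -0.67), among them Meis3 at 6.15 ± 3.64 CPM in basal TEBs and 19.2 ± 3.44 CPM in basal ducts, and Meis1 at 13.4 ± 3.97 CPM in basal TEBs and 31.2 ± 3.21 CPM in basal ducts. Meis1 was also lower in basal than luminal TEBs (13.4 ± 3.97 CPM in basal TEBs, 24.4 ± 2.47 CPM in luminal TEBs), where Pbx4 was higher. Of 19 Polycomb genes, 10 were higher and 0 lower in basal over luminal ducts (median 0.37), led by Cbx6 at 24.2 ± 3.77 CPM in basal ducts and 8.35 ± 2.08 CPM in luminal ducts, and Cbx2 at 26.2 ± 6.77 CPM in basal ducts and 10.1 ± 1.95 CPM in luminal ducts. In basal TEBs 6 of the Polycomb genes were lower than in basal ducts (median -0.71), among them Ezh2, the H3K27 methyltransferase, at 34.2 ± 8.12 CPM in basal TEBs and 77.4 ± 1.67 CPM in basal ducts. Of 11 Trithorax and H3K27 demethylase genes, 6 were higher and 1 lower in basal over luminal ducts (median 0.43) and 5 were lower in basal TEBs than basal ducts (median -0.56), Wdr5 among both at 16.8 ± 6.31 CPM in basal TEBs, 37.4 ± 5.23 CPM in basal ducts and 17.8 ± 2.21 CPM in luminal ducts. These medians lay near those of all TSS peaks, 0.35 in basal over luminal ducts and -0.62 in basal TEBs over basal ducts.

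The retinoic acid pathway had promoter peaks for 15 of 17 genes. In basal over luminal ducts 9 were higher and 0 lower (median log2 fold change 0.83), beside 43.5% and 13.1% of all TSS peaks. Stra6, the retinol uptake receptor, had 20.4 ± 1.82 CPM in basal ducts and 1.01 ± 0.136 CPM in luminal ducts (log2 fold change 4.23, FDR 1.0e-39 in edgeR), and in TEBs 9.58 ± 2.59 CPM in basal and 2.61 ± 0.69 CPM in luminal cells. Crabp2, which carries retinoic acid to its receptors, had 4.88 ± 3.37 CPM in basal TEBs, 15 ± 1.61 CPM in basal ducts and 4.45 ± 0.88 CPM in luminal ducts. In basal TEBs over basal ducts 7 genes of the pathway were lower and 0 higher (median -0.95), beside 30.7% and 0.771% of all TSS peaks. Of 16 other homeobox genes, 12 had a promoter peak, of which 6 were higher in basal over luminal ducts (median 0.67, beside 43.5% of all TSS peaks) and 2 in basal over luminal TEBs (median 0.62, beside 10.7%). Meox1 led both, at 7.40 ± 3.24 CPM in basal TEBs, 5.34 ± 0.296 CPM in basal ducts, 0.567 ± 0.716 CPM in luminal TEBs and 0.569 ± 0.493 CPM in luminal ducts. In luminal TEBs over luminal ducts no gene of these 5 lists was called by edgeR.

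Short sequence motifs were counted in a 200 bp window around the middle of each peak, on both strands, as a description. The window runs past the ends of peaks shorter than 200 bp, so a count is of windows and a match may lie outside the peak. The homeodomain core TAATTA was in 2 of 65 Hox windows (3.08%, against 3.88% of all peaks and 0.54% of GC-rich peaks), in Hoxb4 +0.6 kb and Hoxb1 +0.9 kb, the promoter peaks with the smallest interaction p. The HOX-PBX composite TGATNNAT was in 5 (7.69%, against 8.95% and 0.963%), the posterior HOX motif TTTATNG in 4 (6.15%, against 7.3% and 1.56%) and the CTCF core (CCANNAG followed by NNGGC) in 4 (6.15%, against 4.68% and 2.55%), at Hoxd12 -1.9 kb, Hoxd8 +10.4 kb, Hoxa10 -0.3 kb and Hoxb13 -16.9 kb. The retinoic acid receptor direct repeat, AGGTCA and again AGGTCA after 5 bases, was in 0 Hox windows, against 0.0111% of all peaks and 0% of GC-rich peaks. The AP-1 motif TGANTCA was in 3 (4.62%, against 21.5% of all peaks and 3.3% of GC-rich peaks), and the TEAD motif GGAATG in 9 (13.8%, against 15.5% and 6.19%). The AP-1 share of the Hox peaks thus lay nearer to that of the GC-rich peaks. The ETS motif GGAAGT was in 3 (4.62%, against 13.2% of all peaks and 9.66% of GC-rich peaks), the RUNX motif TGTGGT in 7 (10.8%, against 16.1% and 6.64%), the E-box CAGGTG in 5 (7.69%, against 17% and 18.8%), the GATA motif AGATAA in 2 (3.08%, against 8.55% and 1.21%) and the FOX motif TGTTTAC in 0 (against 4.88% and 0.941%). The RUNX match counted for Hoxb1 +17.9 kb lies outside the 150 bp peak, in its window.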

How the data were processed

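The authors trimmed adapters, aligned reads to mm10 with Bowtie2, removed duplicate reads, pooled the replicates of each population for MACS2 peak calling, merged the peak sets and dropped blacklisted regions. The deposited matrix holds their raw read counts per merged peak for 11 libraries, with 0 unused sample columns. Library totals, in counts within peaks, set the precision, and the floor given for a count of 0 covers counting error only, while SDs and SEs are between libraries. Here, peaks were annotated on GENCODE vM21, and CPM was scaled by TMM factors over the 11 libraries. As in the study's methods, each pair of groups was compared in edgeR 4.0.16 (R 4.3.3) by its exact test, with TMM factors and dispersions of the pair, all peaks with a count, and Benjamini-Hochberg FDR of 0.05 over all peaks. The interaction used the edgeR quasi-likelihood test over 11 libraries after filterByExpr. SEs were computed between libraries on log2 CPM (prior count 2), apart from the fitted fold changes, and at low counts they can understate the uncertainty. The code was tested on simulated data. Named peaks were each gene's promoter peak, then per pair and direction up to 4 peaks with the largest fold change among those past the FDR, with non-overlapping groups and an above-median mean log2 CPM, up to 3 interaction peaks per direction, and 2 promoter peaks per gene list and comparison. Peaks outside these rules were named after their values were seen. The members and lists were chosen with earlier results of these data known. Alternatives were DESeq2 1.42.0, other scaling factors and offsets, a filter, pooled dispersions, the replicate block, each library left out, and other peak sets. The labels number the replicates without naming the animals, so p-values measure the spread between these libraries. No 2 libraries of a group agreed within sampling noise (chi-square per degree of freedom 1.39 to 4.33).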

Additional observations from a re-analysis of the deposited data

Results flagged for a closer look

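Of 44 Hox peaks in the interaction test of edgeR, 3 were called lower (6.82%), all in Hoxb. The share was 6.5% over all peaks, 13.8% over TSS peaks and 15.4% over GC-rich peaks, so 3 calls are no more than the background. The call held in 10 of 18 alternatives for Hoxb4 +0.6 kb, 4 of 18 for Hoxb1 +0.9 kb and 3 of 18 for Hoxb3 -11.2 kb. None held with factors from TSS peaks or GC-bin offsets. The interaction was -0.94 on the log2 scale for Hoxb4 +0.6 kb, -1.05 for Hoxb1 +0.9 kb and -1.52 for Hoxb3 -11.2 kb, each with a lower TEB over duct ratio in basal than in luminal cells. Basal TEB libraries were the shallowest, with 8, 9 and 11 counts for Hoxb3 -11.2 kb, against 107 and 65 counts in basal ducts. The part of depth and scaling in these values beyond the alternatives given under the processing was not tested.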

How the results depend on the processing

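Among the values of single named peaks, 25 calls gave 385 values under alternatives, of which 257 stayed past the FDR, 128 kept the direction and lost the FDR, and 0 reversed. Of 81 uncalled values, 29 of 1234 passed the FDR in some setting and 0 reversed. The call of Hoxc13 +0.8 kb held in every alternative run in ducts and TEBs. In basal over luminal ducts, 37 higher Hox peaks became 24 with DESeq2 and 22 with the replicate block and GC-bin offsets, and 27 to 37 when each library was left out. The 2 lower peaks became 5 with factors from TSS peaks or GC-bin offsets, 4 with the block and GC-bin offsets, 1 with filterByExpr or without the flanks, 0 with loess offsets or DESeq2, and 0 to 3 with a library left out. In basal over luminal TEBs, 6 higher peaks became 2 with DESeq2 and 2 to 7 with a library left out, and the 2 lower peaks became 0 with filterByExpr, 1 with loess offsets, DESeq2, the replicate block, the block with GC-bin offsets or without the flanks, and 1 to 3 with a library left out. In basal TEB over basal duct, 7 lower peaks became 12 with dispersions from 11 libraries, 11 with loess offsets, 3 with RLE factors, 1 with filterByExpr or the replicate block, 0 with factors from TSS peaks, GC-bin offsets, the block with GC-bin offsets or DESeq2, and 0 to 6 with a library left out. The 3 interaction peaks became 1 with the replicate block, 0 with RLE factors, factors from TSS peaks, GC-bin offsets or the block with GC-bin offsets, and 0 to 4 with a library left out. The cause was not tested, other than that a left-out library leaves fewer samples and a filter fewer peaks. Factors from TSS peaks or GC-bin offsets set the median change of TSS or GC-rich peaks near 0 by construction, which moved the Hox median in basal TEB over basal duct from -0.67 to 0 and -0.20. Counts in luminal TEB over luminal duct stayed at 0 throughout. Same-numbered libraries had correlations of -0.036 to 0.079, and differently numbered ones -0.057 to 0.046. Between luminal ducts and luminal TEBs, same-numbered libraries had 0.038, 0.079 and 0.058, and differently numbered ones -0.057 to 0. Whether equal numbers share animals was not settled by these values. The main tests left the libraries unpaired, and the block results above show the other choice. Depth was lowest in basal TEBs, with a median of 4 to 5 counts per Hox peak.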
